A study of Mus musculus with 4 samples.

Results

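Chaperones bind unfolded or newly made proteins and keep them from aggregating. The heat shock proteins and chaperones described here are 10 genes, taken by symbol from a table of 16230 genes, and all 10 were present. They cover the cytosol, the mitochondrion and the endoplasmic reticulum (ER). Their transcripts were measured in cells sorted from the spleen as CD3+ CD4+ T cells, 8 weeks after naive CD4 T cells were given to Rag-/- mice, which lack lymphocytes of their own and develop colitis after such a transfer. In the tested cells, labelled CD4creERafl/fl, a Cre recombinase driven by Cd4 acts on loxP-flanked Esr1, the gene of estrogen receptor alpha (2 libraries). The control cells, labelled ERafl/fl, carry the flanked gene without the recombinase (2 libraries). Both groups thus carry the flanked allele, and all hosts were Rag-/- and colitic. Nothing in the labels ties a library to its own mouse. The variation within a group could thus be technical. The p-values rest on such variation alone, with that of each gene drawn towards the variation of all tested genes. Sex, age and the number of mice per library are not given in the sources used here.

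HSP70 proteins, among them the products of Hspa1a, Hspa1b and Hspa8, grip exposed hydrophobic stretches of a client protein and release them in an ATP-driven cycle. J proteins such as Dnajb1 deliver the client, and Hsph1, an HSP110, helps to exchange the nucleotide. HSP90 proteins act later, on kinases and on steroid receptors, and the unliganded estrogen receptor is one of their clients. Heat and other proteotoxic stress release heat shock factor 1 (Hsf1), which binds repeats of GAA and TTC, called heat shock elements, before the inducible genes. The ER has its own sensor system, the unfolded protein response, which acts through ER stress elements before Hspa5.

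Expression is given as FPKM, fragments normalised to transcript length and to library depth, as the authors deposited it. The sum of FPKM lay between 444640 and 450656 per library. From the spacing of low values, the depth was estimated at 493000 and 549000 reads in CD4creERafl/fl 1 and 2 and at 686000 and 655000 reads in ERafl/fl 1 and 2. 1 read on a transcript of 2000 bases was then worth 1.01, 0.91, 0.73 and 0.76 FPKM. Esr1 was listed at 0 and had 1.96 FPKM in CD4creERafl/fl, against 0.23 FPKM and a listed 0 in ERafl/fl, which is at most an estimated 6.82 reads and does not check the labels. The genotypes are therefore used as labelled. Marker levels did not follow the sort label alike in all libraries. The marker lists were chosen with earlier results of these data known. Of 23 genes restricted to T cells, 23 were lower without overlap in the libraries labelled CD4creERafl/fl (25.7% of all tested genes), with summed levels of 430 and 377 FPKM there, against 1996 and 1563 FPKM in ERafl/fl. All 19 macrophage and monocyte markers were higher without overlap in CD4creERafl/fl (23.2% of all tested genes), with sums of 2994 and 3572 FPKM, against 99.7 and 543 FPKM in ERafl/fl. Of them 5 were at 0 in ERafl/fl 1 and 0 in the other libraries. The 12 erythroid markers summed to 6702 and 5255 FPKM in CD4creERafl/fl, and to 227 and 8402 FPKM in ERafl/fl, so ERafl/fl 1 stood apart. Adgre1 (F4/80), a defining macrophage marker named after its values were seen, had 48.3 and 43.9 FPKM in CD4creERafl/fl, and in ERafl/fl it was listed at 0 and had 5.53 FPKM. The part of these marker differences in the chaperone levels below was not tested. Fewer cells of a type cannot be told apart from less RNA per cell.

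The inducible HSP70 pair, Hspa1a (chromosome 17, 34969359 to 34972156) and Hspa1b (chromosome 17, 34956429 to 34959238; coordinates here are GRCm38.p6 throughout), encodes nearly the same protein from neighbouring genes. Their upstream stretches are shown because the promoters are close to identical. The 250 bases before each start site, from RefSeq and on the minus strand, follow 5′ to 3′. Capitals mark exact matches of GAANNTTC, a GAA and a TTC unit as found in heat shock elements.
Hspa1a: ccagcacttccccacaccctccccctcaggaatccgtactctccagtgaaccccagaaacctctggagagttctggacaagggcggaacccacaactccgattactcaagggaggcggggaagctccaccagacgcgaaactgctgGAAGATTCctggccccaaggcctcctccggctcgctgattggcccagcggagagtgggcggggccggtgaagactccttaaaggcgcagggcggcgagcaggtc
Hspa1b: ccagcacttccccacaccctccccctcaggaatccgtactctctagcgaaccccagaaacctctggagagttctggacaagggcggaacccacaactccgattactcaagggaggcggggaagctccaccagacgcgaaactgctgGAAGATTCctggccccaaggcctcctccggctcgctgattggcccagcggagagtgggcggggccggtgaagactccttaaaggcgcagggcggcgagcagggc
The Hspa1a stretch is chr17:34972157-34972406 and the Hspa1b stretch chr17:34959239-34959488. They were 98.8% identical, with 3 differences (C207T, T204C and T2G; the Hspa1a base, the position counted back from 1 at the base before the start site, and the Hspa1b base). GAANNTTC, which reads the same on both strands, lay 104 to 97 bases before both start sites. It was found in 6.69% of 32851 RefSeq windows of this length.

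Hspe1 and Hspd1, the mitochondrial pair, are neighbours on opposite strands of chromosome 1, and a longer element stands before the start site of Hspe1 at 55088148. RefSeq gives Hspd1 start sites at 55088243 and 55087932; the element lies before the one at 55087932 and after the one at 55088243. The sites found before Hspe1, Hsph1 and Hspa5 are shown in 30 bases each, on the strand of the gene, with the matched bases in capitals.
Hspe1: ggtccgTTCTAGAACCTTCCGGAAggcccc
Hsph1: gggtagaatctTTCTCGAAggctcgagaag
Hspa5: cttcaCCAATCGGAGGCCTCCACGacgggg
The Hspe1 site (chr1:55088053-55088082, plus strand, match 89 to 72 bases before the start) holds 4 alternating GAA and TTC units. Its overlapping matches are 1 of GAANNTTC and 2 of TTCNNGAA. A run of 3 units (GAA, 2 bases, TTC, 2 bases and GAA, on either strand) was found in 0.466% of all windows. The Hsph1 site (chr5:149636351-149636380, minus strand, match 33 to 26 bases before the start site at 149636336) is TTCNNGAA, found in 7.17% of windows. The Hspa5 site (chr2:34772020-34772049, plus strand, match 65 to 47 bases before the start) is the ER stress element, CCAAT, 9 bases of any kind and CCACG, found on either strand in 0.113% of windows. GENCODE exons of Hsph1 and Hspa5 cover the matches before these genes, and an exon of Hspd1 covers the Hspe1 match. The matches thus lie upstream of the start sites used here but within annotated transcripts. None of these motifs had an exact match in the 250 bases before Dnajb1, and imperfect elements were not searched for. Hspa8, Hsp90aa1 and Hsp90ab1 had no promoter entry, so 7 of the 10 genes could be searched.

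None of the 10 genes passed the test between the groups. In limma with Benjamini-Hochberg adjustment over 12896 genes, 0 of 10 had an adjusted p under 0.05, where 0.0543% of all tested genes did (0.0155% higher and 0.0388% lower). Of the 10, 3 had a higher mean log2(FPKM + 1) in CD4creERafl/fl, where 46.4% of all tested genes did, and 7 a lower mean, where 53.6% did. Of these 7, Hspa1a and Hspe1 had slightly higher mean FPKM in CD4creERafl/fl (196 against 195 FPKM in ERafl/fl, and 64.2 against 61.7 FPKM), so their sign depends on the log scale. Scaled to genes restricted to T cells, all 10 were higher, as given at the end. At an unadjusted p under 0.05 there were also 0 of 10, against 15.9% of all tested genes. With voom weights on estimated reads, 0 of the 7 genes that could be tested were called. The 10 differences ranged between -0.45 and 0.40 on the log2(FPKM + 1) scale, with a median of -0.07, where the median over all tested genes was also -0.07. Their sum was 2402 and 2140 FPKM in CD4creERafl/fl, against 2288 and 2349 FPKM in ERafl/fl, which is 0.475% to 0.537% of the summed FPKM of a library. A missed threshold does not show equal levels, so the 95% intervals are given with each gene.

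**Figure D1:**
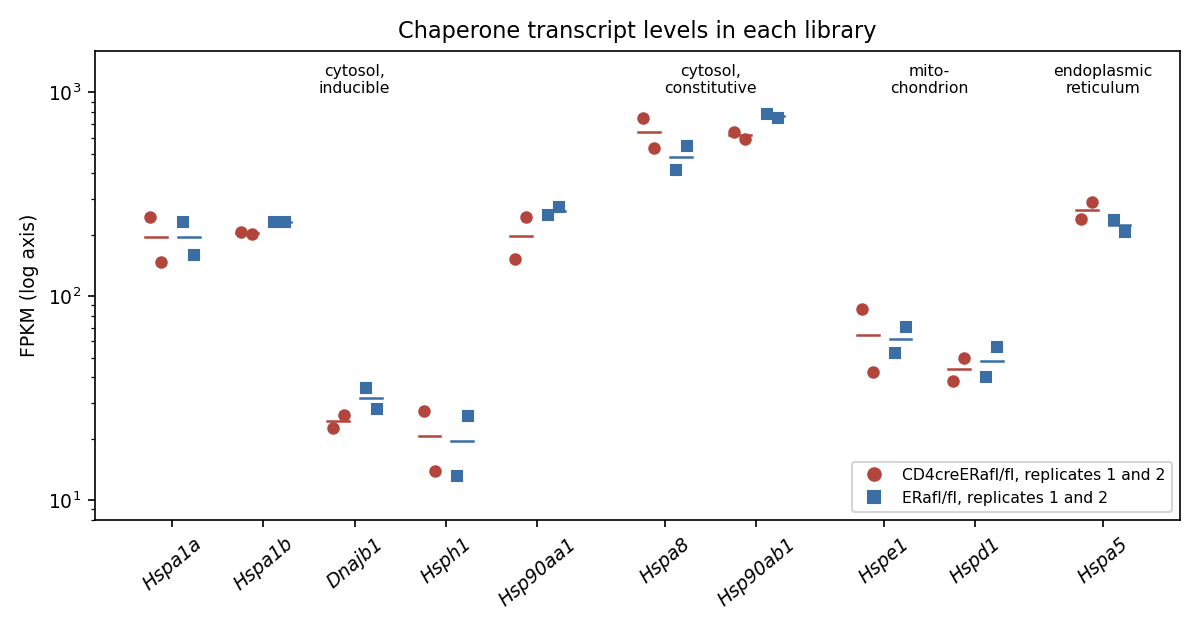
FPKM (log axis) of the 10 genes in each library, by compartment; circles are CD4creERafl/fl 1 and 2, squares ERafl/fl 1 and 2, and short lines the group means. The levels span from 13.1 FPKM (Hsph1 in ERafl/fl 1) to 779 FPKM (Hsp90ab1 in ERafl/fl 1), and for 5 genes the libraries of the groups overlap.

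The inducible HSP70 genes were well expressed in all libraries. Hspa1a had 245 and 147 FPKM in CD4creERafl/fl, against 231 and 159 FPKM in ERafl/fl. In both groups the first library was the higher one, and the groups overlapped almost completely. The difference was -0.01 ± 0.36 (log2, SE; 95% interval -0.92 to 0.89; adjusted p = 0.989 in limma). Hspa1b had 206 and 203 FPKM in CD4creERafl/fl, against 232 and 232 FPKM in ERafl/fl. Both CD4creERafl/fl libraries were lower here, and the values within each group lay close together. The difference was -0.18 ± 0.24 (log2, SE; 95% interval -0.78 to 0.42; adjusted p = 0.747 in limma). This SE draws on the variation of all tested genes, while the largest gap within a group was 0.02 on the log2 scale. Of the 50-base stretches of the Hspa1a transcript, 58.8% also occur in Hspa1b, so the split of reads between them is an estimate by the authors' software. A read given to either gene counts in their sum, which was 451 and 350 FPKM in CD4creERafl/fl, against 463 and 391 FPKM in ERafl/fl, with the values of the groups overlapping.

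The J protein and the exchange factor that work with HSP70 were at lower levels. Dnajb1 (chromosome 8, 83608175 to 83612653) had 22.6 and 26.0 FPKM in CD4creERafl/fl, against 35.5 and 27.9 FPKM in ERafl/fl. Both CD4creERafl/fl libraries were lower, by a small margin over the nearer control, and the difference was -0.36 ± 0.33 (log2, SE; 95% interval -1.18 to 0.45; adjusted p = 0.615 in limma). These values rest on an estimated 33.4, 42.8, 73.0 and 54.7 reads. Hsph1 (chromosome 5, 149616843 to 149636498) had 27.4 and 13.8 FPKM in CD4creERafl/fl, against 13.1 and 25.8 FPKM in ERafl/fl. Each group held 1 high and 1 low library, 0.94 and 0.92 apart on the log2 scale, and the group difference was 0.08 ± 0.51 (log2, SE; 95% interval -1.19 to 1.34; adjusted p = 0.958 in limma).

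Of the HSP90 genes, the inducible Hsp90aa1 and the constitutive Hsp90ab1 both had lower values in CD4creERafl/fl. Hsp90aa1 (chromosome 12, 110691036 to 110696395) had 151 and 244 FPKM in CD4creERafl/fl, against 250 and 275 FPKM in ERafl/fl. CD4creERafl/fl 1 was the lowest of the 4 libraries, and the difference was -0.45 ± 0.32 (log2, SE; 95% interval -1.24 to 0.35; adjusted p = 0.538 in limma). Without CD4creERafl/fl 1 it was -0.10, and without CD4creERafl/fl 2 it was -0.79. Of its 50-base stretches 58.5% also occur in 4 other annotated genes, 0 of them in the deposited table, so reads of those copies could be counted here. Hsp90ab1 (chromosome 17, 45567778 to 45573261) had 639 and 592 FPKM in CD4creERafl/fl, against 779 and 749 FPKM in ERafl/fl. The groups were separate and the libraries within each were close, with a difference of -0.31 ± 0.23 (log2, SE; 95% interval -0.88 to 0.25; adjusted p = 0.545 in limma). Leaving out any 1 library kept it between -0.37 and -0.26. When libraries were scaled to the genes restricted to T cells, both differences were positive, as given below. Hsp90aa1 minus Hsp90ab1 was -2.07 and -1.27 on the log2(FPKM + 1) scale in CD4creERafl/fl, against -1.64 and -1.44 in ERafl/fl, with overlap.

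Hspa8 (chromosome 9, 40801276 to 40805202), the constitutive HSP70 of the cytosol, had the highest average in CD4creERafl/fl and showed the largest positive difference of the 10. It had 749 and 533 FPKM in CD4creERafl/fl, against 417 and 545 FPKM in ERafl/fl. CD4creERafl/fl 2 lay below ERafl/fl 2, so the groups overlapped, and the difference was 0.40 ± 0.29 (log2, SE; 95% interval -0.33 to 1.14; adjusted p = 0.544 in limma). Of its 50-base stretches 73.2% also occur in transcripts of 11 other annotated genes, but 0% in another gene of the deposited table, so reads of those copies could be counted here. The log2(FPKM + 1) level of a gene minus that of Hspa8 compares both within a library, so scaling a library hardly moves it. Hsp90ab1 minus Hspa8 was -0.23 and 0.15 in CD4creERafl/fl, against 0.90 and 0.46 in ERafl/fl. Dnajb1 minus Hspa8 was -4.99 and -4.30 in CD4creERafl/fl, against -3.52 and -4.24 in ERafl/fl. Both ratios were lower in both CD4creERafl/fl libraries, as were those of Hspa1b and Hsp90aa1 to Hspa8. The ratios of Hspa1a, Hsph1 and Hspa5 to Hspa8 overlapped between the groups. Hspa1a minus Hspa8 was -1.61 and -1.85 in CD4creERafl/fl, against -0.85 and -1.77 in ERafl/fl. Since Hspa8 had the largest positive difference of the 10, the group difference of this measure is negative for each other gene by construction. Nothing is read from its sign or from the separation of libraries.

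The mitochondrial chaperonin genes showed no common shift. Hspd1 (chromosome 1, 55077833 to 55088243) encodes the HSP60 ring, and had 38.2 and 49.6 FPKM in CD4creERafl/fl, against 40.3 and 56.3 FPKM in ERafl/fl. The second library was higher in both groups, and the difference was -0.13 ± 0.34 (log2, SE; 95% interval -0.96 to 0.71; adjusted p = 0.879 in limma). Hspe1 (chromosome 1, 55088148 to 55091317) encodes HSP10, the lid of that ring, and had 86.2 and 42.2 FPKM in CD4creERafl/fl, against 52.5 and 70.8 FPKM in ERafl/fl. The highest and the lowest value were both in CD4creERafl/fl, and the difference was -0.01 ± 0.43 (log2, SE; 95% interval -1.08 to 1.05; adjusted p = 0.99 in limma). Hspe1 is short, and its values rest on an estimated 32.9, 17.9, 27.9 and 35.9 reads. Hspe1 was highest in CD4creERafl/fl 1, where Hspd1 was lowest. Of 50-base stretches, 36.1% of Hspe1 and 44.8% of Hspd1 also occur in other annotated genes, none of them in the deposited table.

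Hspa5 (chromosome 2, 34772090 to 34776529), the HSP70 of the ER known as BiP, was the one gene of the 10 with both CD4creERafl/fl libraries above both controls. It had 238 and 290 FPKM in CD4creERafl/fl, against 237 and 207 FPKM in ERafl/fl. CD4creERafl/fl 1 and ERafl/fl 1 differed by under 1 FPKM, so the separation rests on the second libraries. The difference was 0.24 ± 0.26 (log2, SE; 95% interval -0.40 to 0.89; adjusted p = 0.68 in limma). Hspa5 shares 0% of its 50-base stretches with another annotated gene.

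**Figure D2:**
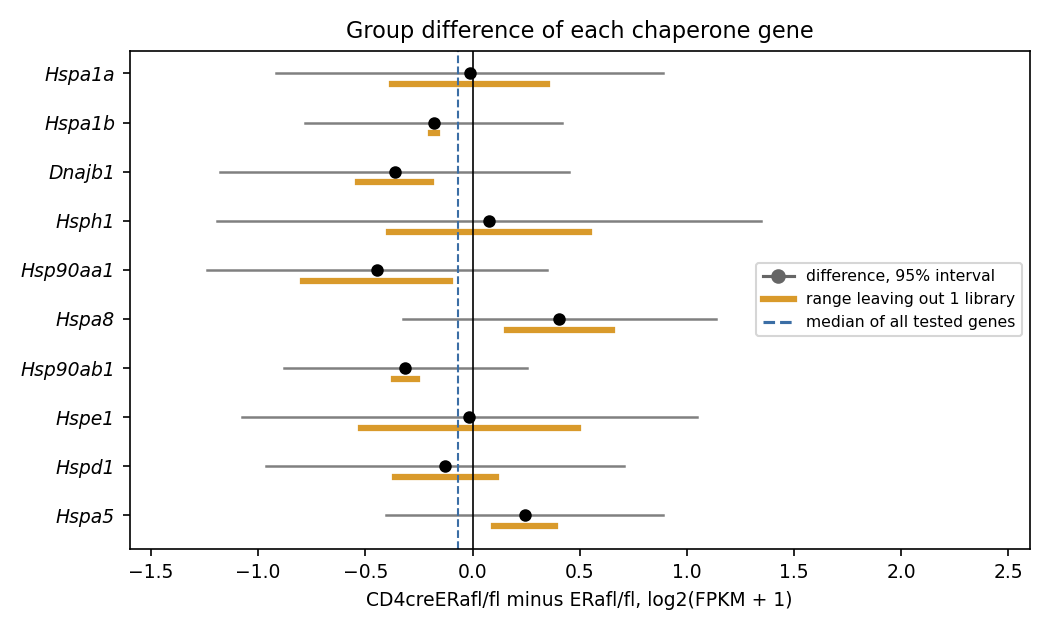
Difference CD4creERafl/fl minus ERafl/fl on log2(FPKM + 1) for the 10 genes, with 95% intervals from limma (grey) and the range when 1 library is left out (orange); the dashed line is the median of all tested genes, -0.07. Every interval includes 0, and the orange range crosses 0 for Hspa1a, Hsph1, Hspe1 and Hspd1; scaled to genes restricted to T cells, all 10 differences were positive.

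By compartment, the 5 inducible cytosolic genes summed to 652 and 634 FPKM in CD4creERafl/fl, against 761 and 720 FPKM in ERafl/fl. The 2 constitutive cytosolic genes summed to 1387 and 1125 FPKM in CD4creERafl/fl, against 1196 and 1294 FPKM in ERafl/fl. The mitochondrial pair summed to 124 and 91.8 FPKM in CD4creERafl/fl, against 92.8 and 127 FPKM in ERafl/fl. The inducible sum was thus lower in both CD4creERafl/fl libraries, while the constitutive and mitochondrial sums overlapped. Of the 5 inducible genes, Hspa1a and Hsph1 overlapped between the groups, as did the sum of Hspa1a and Hspa1b. Hsp90aa1 entered the inducible sum with 151 and 244 FPKM in CD4creERafl/fl, against 250 and 275 FPKM in ERafl/fl. Scaled to genes restricted to T cells, all 5 were higher in CD4creERafl/fl. Without this scaling, 9 of 13 immediate early genes were higher without overlap in CD4creERafl/fl (23.2% of all tested genes). Such genes are induced within minutes of stimulation or handling. Their list median was 0.78 on the log2 scale, with 0 called. Their sums were 1262 and 1630 FPKM in CD4creERafl/fl, against 1128 and 711 FPKM in ERafl/fl. Fos, Fosb, Junb and Jund overlapped between the groups. Macrophage markers were also higher in CD4creERafl/fl, as given above, and their part in this count was not tested. Over the 10 chaperone genes, 4 were lower without overlap in CD4creERafl/fl (Hspa1b, Dnajb1, Hsp90aa1 and Hsp90ab1), where 25.7% of all tested genes were. 1 was higher without overlap (Hspa5), where 23.2% of all tested genes were. Leaving out 1 library changed these counts, given here with the share of all tested genes in brackets. Without CD4creERafl/fl 1, 6 were lower (36.0%) and 1 was higher (37.8%). Without CD4creERafl/fl 2, 5 were lower (43.0%) and 5 higher (35.3%). Without ERafl/fl 1, 5 were lower (37.4%) and 1 was higher (33.2%). Without ERafl/fl 2, 4 were lower (38.1%) and 3 higher (33.1%).

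Gaps between libraries of the same group were often as large as the difference between groups. For 7 of the 10 genes the larger gap within a group was at least the group difference, as for 64.5% of all tested genes. The largest was that of Hspe1 in CD4creERafl/fl, at 1.01 on the log2 scale. Hspa1b, Hspa8, Hsph1 and Hspe1 shared an order, with the first library higher in CD4creERafl/fl and the second higher in ERafl/fl. That order was found for 4 of the 10 genes, for 23 of the 83 other chaperone genes and for 21.5% of all tested genes. The levels kept nearly the same ranking in each library. Hsp90ab1 and Hspa8 held the top places in all 4 libraries, Dnajb1 and Hsph1 the last places, and places 3 to 6 changed among Hsp90aa1, Hspa5, Hspa1b and Hspa1a, whose values overlapped. Hspe1 and Hspd1 stood at places 7 and 8, in either order.

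**Figure D3:**
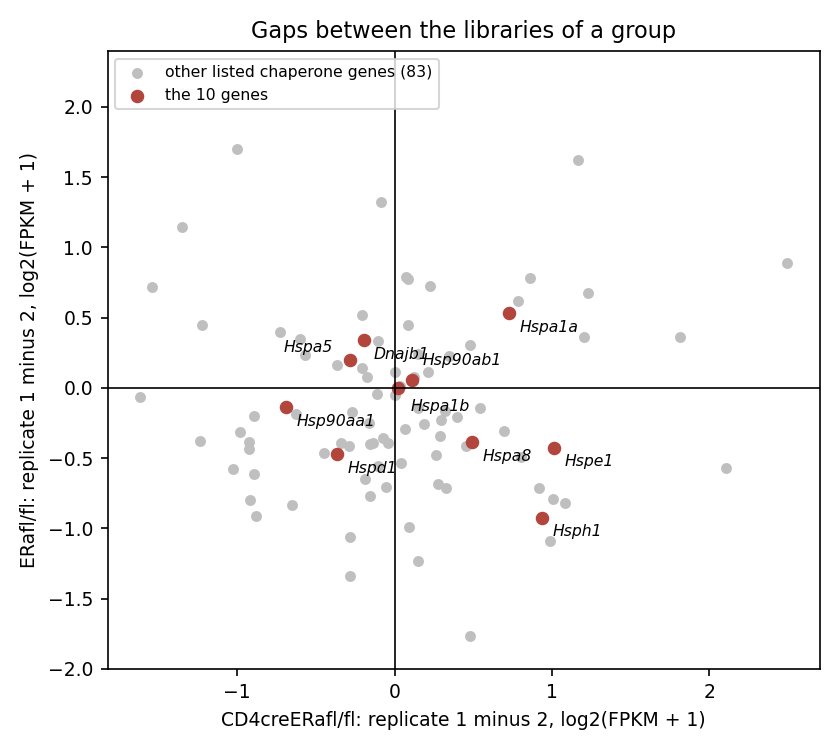
Replicate 1 minus replicate 2 on log2(FPKM + 1), within CD4creERafl/fl (horizontal) and within ERafl/fl (vertical), for the 10 genes (red) and 83 other listed chaperone genes (grey). Hsph1 and Hspe1 lie in the lower right, high in CD4creERafl/fl 1 and in ERafl/fl 2, while Hspa1b lies at the centre.

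The wider chaperone network was covered by 86 further genes in 9 lists, of which 83 were in the table and tested; Hspb1, Hspb8 and Cryab have no row there. Over these lists 0 of 83 genes were called in either direction in limma, while the unadjusted p was under 0.05 for 3 genes higher (9.1% of all tested genes) and 6 lower (6.8%). Hsf1, the transcription factor of the heat shock response, had 13.9 and 5.34 FPKM in CD4creERafl/fl, against 18.5 and 11.2 FPKM in ERafl/fl, with overlap (log2 difference -0.67 ± 0.55, SE, adjusted p = 0.584 in limma). Its relative Hsf2 had 3.79 and 4.09 FPKM in CD4creERafl/fl, against 4.36 and 1.14 FPKM in ERafl/fl, also with overlap. The Hsf2 values rest on an estimated 4.9, 5.8, 7.8 and 1.9 reads. The 3 genes of that list had a median of 0.19.

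The 14 genes of the cytosolic chaperonin CCT, the ring that folds actin and tubulin, and of its partner prefoldin had lower values in most members. 11 of 14 were lower without overlap in CD4creERafl/fl, where 25.7% of all tested genes were, and 0 were higher, where 23.2% were. The list median was -0.56 on the log2 scale, or 1.83 when scaled to genes restricted to T cells (all genes 1.995). Without ERafl/fl 1 the count was 13 of 14, where 37.4% of all tested genes were lower. The median was -0.28 without ERafl/fl 2. Pfdn6, a prefoldin subunit, had 11.4 and 18.1 FPKM in CD4creERafl/fl, against 31.8 and 36.4 FPKM in ERafl/fl (log2 difference -1.19 ± 0.37, SE, adjusted p = 0.233 in limma). Vbp1, another prefoldin subunit, had 5.02 and 11.3 FPKM in CD4creERafl/fl, against 18.02 and 27.4 FPKM in ERafl/fl (-1.44 ± 0.49, SE, adjusted p = 0.261 in limma). In CD4creERafl/fl these values rest on an estimated 4.5 and 8.0 reads for Pfdn6 and 3.9 and 9.9 reads for Vbp1. The CCT subunit gene Tcp1, named after its values were seen, had 99.8 and 71.4 FPKM in CD4creERafl/fl, against 156 and 126 FPKM in ERafl/fl. The summed level of the genes restricted to T cells was lower in the same libraries, as given above, and its part in these counts was not tested.

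The ER list of chaperones and unfolded protein response genes ran the other way. Of 22 genes, 11 were higher without overlap in CD4creERafl/fl, where 23.2% of all tested genes were, and 3 were lower, where 25.7% were. The list median was 0.36 on the log2 scale, or 2.66 when scaled to genes restricted to T cells (all genes 1.995). Without ERafl/fl 1 the counts were 13 (33.2% of all tested genes) and 4 (37.4%), and the median was 0.18. Without ERafl/fl 2 the median was 0.58. Herpud1, which takes part in the removal of misfolded ER proteins, had 38.5 and 33.6 FPKM in CD4creERafl/fl, against 15.4 and 18.5 FPKM in ERafl/fl (log2 difference 1.05 ± 0.32, SE, adjusted p = 0.231 in limma). Dnajb9, an ER partner of BiP, had 19.3 and 29.9 FPKM in CD4creERafl/fl, against 11.6 and 8.89 FPKM in ERafl/fl (1.17 ± 0.39, SE, adjusted p = 0.255). Hsp90b1, the HSP90 of the ER, was named after its values were seen. It had 190 and 211 FPKM in CD4creERafl/fl, against 119 and 204 FPKM in ERafl/fl. The macrophage markers were higher in the same libraries, as given above, and their part in these counts was not tested.

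**Figure D4:**
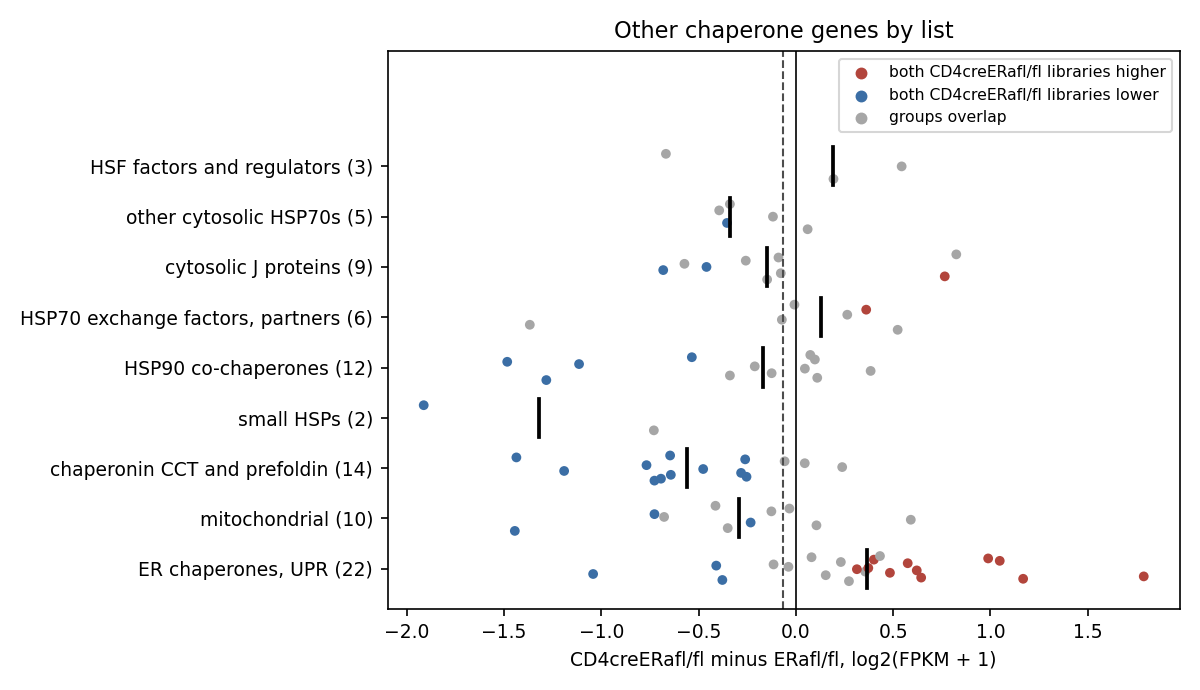
Difference CD4creERafl/fl minus ERafl/fl on log2(FPKM + 1) for 83 chaperone genes in 9 lists, with the number of genes in brackets; black bars are list medians, the dashed line the median of all tested genes, and colours show whether both libraries of a group lay on one side. The CCT and prefoldin list centres at -0.56 and the ER list at 0.36, and no gene shown passed the test. Scaled to genes restricted to T cells, these medians were 1.83 and 2.66, and that of all tested genes was 1.995.

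The remaining lists had mixed directions. Among 12 co-chaperones of HSP90, 4 were lower (25.7% of all tested genes) and 0 higher (23.2%) without overlap in CD4creERafl/fl, with a median of -0.17. Fkbp5, an immunophilin of steroid receptor complexes, had 7.14 and 5.95 FPKM in CD4creERafl/fl, against 26.0 and 15.4 FPKM in ERafl/fl (log2 difference -1.48 ± 0.42, SE, adjusted p = 0.202 in limma). Unc45a, a co-chaperone for myosin, had 3.62 and 4.34 FPKM in CD4creERafl/fl, against 13.5 and 9.10 FPKM in ERafl/fl (-1.28 ± 0.43, SE, adjusted p = 0.25). Both genes were lower in both CD4creERafl/fl libraries. Their values there rest on an estimated 12.5 and 11.6 reads for Fkbp5 and 5.8 and 7.8 reads for Unc45a.

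Among 10 mitochondrial chaperones and proteases, 3 were lower (25.7% of all tested genes) and 0 higher (23.2%) without overlap, with a median of -0.29. Hspa9, the HSP70 of the mitochondrion, had 22.01 and 17.4 FPKM in CD4creERafl/fl, against 31.2 and 35.1 FPKM in ERafl/fl (log2 difference -0.73 ± 0.33, SE, adjusted p = 0.356 in limma). Clpb, a mitochondrial disaggregase, had 0.44 and 0.40 FPKM in CD4creERafl/fl, against 2.21 and 3.65 FPKM in ERafl/fl, on an estimated 1.0, 1.0, 7.0 and 11.1 reads. Hspa9 was thus lower in both libraries, in contrast to Hspd1 and Hspe1 of the same compartment, though the difference between these genes was not tested.

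Among 9 cytosolic J proteins 2 were lower (25.7% of all tested genes) and 1 was higher (23.2%) without overlap, with a median of -0.15. Dnajc2, a J protein at the ribosome, had 30.4 and 24.7 FPKM in CD4creERafl/fl, against 39.5 and 50.3 FPKM in ERafl/fl. Dnajb4 had 6.28 and 12.5 FPKM in CD4creERafl/fl, against 4.45 and 5.25 FPKM in ERafl/fl. The 6 exchange factors and partners of HSP70 had a median of 0.13, with 1 higher without overlap (23.2% of all tested genes). Bag1, an exchange factor, had 72.4 and 62.4 FPKM in CD4creERafl/fl, against 54.1 and 50.1 FPKM in ERafl/fl. Bag5 had 4.64 FPKM and a listed 0 in CD4creERafl/fl, against 7.34 and 3.50 FPKM in ERafl/fl, on an estimated 4.9, 0.0, 10.8 and 4.9 reads.

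The 5 other cytosolic HSP70 and HSP110 genes had a median of -0.34, with 1 lower without overlap (25.7% of all tested genes). Hspa1l, the neighbour of Hspa1a expressed mainly in testis, had 28.9 and 13.9 FPKM in CD4creERafl/fl, against 20.1 and 35.5 FPKM in ERafl/fl. Hspa4l had 5.54 and 3.48 FPKM in CD4creERafl/fl, against 5.58 and 6.27 FPKM in ERafl/fl. Of the 5 genes listed as small HSPs, only Hspb6 and Hspb11 had a row, each on at most an estimated 8.8 reads per library. Hspb6 had 1.46 and 3.93 FPKM in CD4creERafl/fl, against 9.42 and 2.20 FPKM in ERafl/fl, and Hspb11 was listed at 0 in both CD4creERafl/fl libraries, against 2.70 and 2.83 FPKM in ERafl/fl, on an estimated 1.1 reads each.

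The directions depended on the scaling. Each library was scaled to the mean log2 level of the 23 genes restricted to T cells. The median difference of all tested genes then moved by 2.06 to 1.99. In limma, 10 of the 10 chaperone genes and 69 of the 83 others were called higher, as were 8902 of all 12896 tested genes. All 10 were between -0.01 and 0.85 relative to that median, with Hspa8 and Hspa5 the farthest above it, at 0.85 and 0.68. The 7 genes with a negative difference on log2(FPKM + 1) without this scaling had a positive one here.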

How the data were processed

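RNA of sorted spleen CD4 T cells was sequenced in 2 libraries per genotype. The authors deposited FPKM values of 16230 genes in one table; HISAT, Bowtie2, RSEM and the mm10 build appear, per the submitters' processing notes, without versions; these and strand use are not given in the sources used here. The filter kept 12896 genes whose FPKM averaged 1 or more. On log2(FPKM + 1), limma (3.58.1, under R 4.3.3) compared the groups, with no other term and with the variance trend switched on; tests were two-sided, and p-values were adjusted by Benjamini-Hochberg (threshold 0.05). SEs and p-values were moderated, drawing on the variance of all tested genes. The log2(FPKM + 1) scale understates the change of low genes. For 2 libraries against 2 the smallest two-sided exact permutation p is 0.33, so no such test was used. Depth was estimated from 10348 genes with 1 transcript over 800 bases, as the step that put most low values within 0.2 of a whole read (78.3% to 79.6% of values, against a median of 34.1% to 38.3% over other steps); it covers counting error only. Lengths came from GENCODE transcripts. Sequences came from the RefSeq promoter table (GRCm38.p6). Shared sequence was counted in stretches of 50 bases over GENCODE transcripts. The fit was checked on simulated data.

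The members and lists were chosen with earlier results of these data known. The text names the 10 members, Hsf1, Esr1 and, from each wider list, up to 4 called genes or, with none called, the 2 of lowest unadjusted p; other genes are named as such. Marker lists for other cells had these median log2 differences: neutrophil 1.20, dendritic cell 2.38, NK cell 2.62, B cell 1.06 (3 tested), erythroid 1.81, macrophage and monocyte 3.67, T cell restricted -2.55. Alternatives were another pseudocount, other filters, median-ratio, quantile and T cell scaling, no trend, a replicate block, voom weights and leaving out each library.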

Additional observations from a re-analysis of the deposited data

How the results depend on the processing

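With 2 libraries per group, precision is low: the 95% interval of Hsph1 runs from a fold of 0.44 to 2.54, and that of Hsp90ab1 from 0.54 to 1.19. Apart from the scaling to T cell genes and from leaving out libraries, 75 of 77 recomputed differences of the 10 genes kept their direction and stayed uncalled (adjusted p 0.473 to 1.0 in limma). Under median-ratio scaling Hspa1a was 0.049 and Hspe1 0.048, with the sign turned. This scaling divides all values of a library by a single factor, and it moved the median difference of all tested genes from -0.068 to -0.016. Scaled to T cell genes, the differences were 2.42 for Hspa1a, 2.25 for Hspa1b, 1.99 for Dnajb1, 2.37 for Hsph1, 1.99 for Hsp90aa1, 2.85 for Hspa8, 2.13 for Hsp90ab1, 2.39 for Hspe1, 2.26 for Hspd1 and 2.68 for Hspa5, since the construction divides all values of a library by one factor. It called 8902 genes higher and 40 lower, 10 of the 10 genes and 69 of the 83 others, and moved the list medians to 2.66 (ER) and 1.83 (CCT and prefoldin).

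Leaving out 1 library gave -0.38 to 0.35 for Hspa1a, -0.19 to -0.17 for Hspa1b, -0.53 to -0.19 for Dnajb1, -0.39 to 0.55 for Hsph1, -0.79 to -0.10 for Hsp90aa1, 0.16 to 0.65 for Hspa8, -0.37 to -0.26 for Hsp90ab1, -0.52 to 0.49 for Hspe1, -0.36 to 0.11 for Hspd1 and 0.10 to 0.38 for Hspa5. In each case 0 of all genes were called in either direction, against 2 higher and 5 lower with all libraries. A pseudocount of 0.1, no filter, no trend and a replicate block also left 0 higher and 0 lower, a mean FPKM of at least 5 left 0 higher and 4 lower, and voom weights gave 88 higher and 26 lower. Equal replicate numbers did not mark shared deviations (r = -0.00 over 12896 genes, which are not independent), so the replicate block is only an alternative; it called 0 of the 10 genes. The counts without overlap and the ER and CCT medians were recomputed under alternatives chosen after seeing the data. Leaving out 1 library, the median was 0.18 to 0.58 for the ER list and -0.62 to -0.28 for the CCT and prefoldin list.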
